A study of Mus musculus with 24 samples.

Results

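The acetylcholine receptor of skeletal muscle and the proteins that gather it at the neuromuscular junction were followed through 10 genes: Chrna1, Chrnb1, Chrnd, Chrne and Chrng, which encode the muscle receptor's subunits, Chrna2, which encodes an alpha subunit known mainly from neuronal receptors, and Musk, Lrp4, Dok7 and Rapsn, which encode the clustering machinery. They were found by gene symbol, each in 1 row among the 36172 gene models of the tables. The set was listed by name, as a known group, and was picked from several such groups with earlier results of these same libraries in view, so the changes of its members are given as a description, and counts are set against the share of all genes called. RNA was sequenced from the gastrocnemius, a calf muscle, of C57BL/6 mice in 24 libraries, 4 in each of 6 groups.

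Every mouse carried Notch2f/f, that is, floxed Notch2 alleles. The groups labelled WT (wild type) had genotype Notch2f/f, and those labelled Notch2-mKO had genotype Mlc1fCre/+;Notch2f/f, in which the recombinase is driven from a myosin light chain locus active in muscle fibres, so that other cells of the muscle keep the gene. Within each genotype there were control libraries, libraries taken after 7 days of hindlimb suspension (unloading) and libraries taken 14 days after 1 injection of streptozotocin at 150 mg/kg, which destroys pancreatic beta cells (diabetes). The labels give no age, and nothing in them ties a replicate to an animal of its own. The p-values therefore set group differences only against the spread between these libraries, part of which may be technical.

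At the junction the motor nerve releases acetylcholine onto a pentamer of subunits, with epsilon in place of the fetal gamma subunit in adult muscle. Agrin from the nerve binds Lrp4, which activates the kinase Musk. Dok7 binds Musk from inside the fibre and sustains its activity, and rapsyn, the product of Rapsn, anchors the receptors. In innervated muscle the few nuclei under the nerve ending transcribe these genes most, and loss of the nerve is known to raise several receptor subunit genes and Musk along the whole fibre. A pair of promoter elements is known for this control: the E-box, bound by myogenic factors such as MyoD and myogenin, and the N-box, bound by the GA-binding protein, whose alpha subunit is Gabpa.

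Promoters are shown of the muscle subunit genes with a change between groups, of Musk, and of Chrne as the adult subunit with a known N-box. They are RefSeq sequence of build GRCm38.p6, read 5′ to 3′ on the strand of the gene, and lie outside annotated exons; capitals mark E-boxes and the N-box core.

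Chrna1, chr2:73580339-73580538, minus strand: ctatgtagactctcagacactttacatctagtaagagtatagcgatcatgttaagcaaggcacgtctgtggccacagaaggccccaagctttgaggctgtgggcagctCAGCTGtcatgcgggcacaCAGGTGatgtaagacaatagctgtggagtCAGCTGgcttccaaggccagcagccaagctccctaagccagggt
Chrnb1, chr11:69795944-69796067, minus strand: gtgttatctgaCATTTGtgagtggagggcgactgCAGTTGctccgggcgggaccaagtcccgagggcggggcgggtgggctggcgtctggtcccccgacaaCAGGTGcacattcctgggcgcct
Musk, chr4:58285760-58285959, plus strand: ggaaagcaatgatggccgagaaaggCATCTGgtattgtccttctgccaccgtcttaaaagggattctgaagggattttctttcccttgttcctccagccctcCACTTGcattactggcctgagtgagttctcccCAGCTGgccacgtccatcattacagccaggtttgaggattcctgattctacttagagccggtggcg
Chrne, chr11:70619217-70619416, minus strand: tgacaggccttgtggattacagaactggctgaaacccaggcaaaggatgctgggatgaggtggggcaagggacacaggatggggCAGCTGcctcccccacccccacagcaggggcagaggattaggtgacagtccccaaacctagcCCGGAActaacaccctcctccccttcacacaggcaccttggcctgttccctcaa

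The E-box was searched as CANNTG, with CAGCTG as its common muscle form, and the N-box core as CCGGAA on either strand; CANNTG and CAGCTG read the same on both strands, and each CAGCTG is also a CANNTG. Among 32851 mouse promoter windows of 250 bases, 66.2% held a CANNTG, 13.0% a CAGCTG and 12.0% a CCGGAA. The stretches of Chrna1, Chrnb1 and Musk each held 3 E-boxes, of which 2, 0 and 1 were CAGCTG. That of Chrne held 1 CAGCTG and 1 CCGGAA. A match describes the letters and does not show that a factor was bound.

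The libraries held 33112459 to 56369917 estimated counts each, and levels are given as CPM, the count of a gene relative to the library total, scaled by the TMM method. Notch2 itself, measured over the whole gene in whole muscle, was at 1.84 ± 0.068 CPM (SD, n = 4) in WT control and 1.87 ± 0.584 CPM in Notch2-mKO control, and at 1.43 to 2.28 CPM on average in the treated groups; RNA from cells outside the fibres and from exons that were not deleted enters these values, so they do not check the genotype. Of the 10 genes, 9 passed the expression filter along with 13048 genes in all, and Chrng did not. All libraries entered 1 fit in edgeR, whose quasi-likelihood test gave the adjusted p-values (Benjamini-Hochberg, over those genes); called means an adjusted p under 0.05. Values from DESeq2 or limma are named as such. The 8 fibre markers, among them Ckm and Acta1, summed to 122852 to 286265 CPM in every library, so defining markers of the labelled tissue were present. In whole muscle, fewer cells of a type and less RNA per cell cannot be told apart.

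**Figure D1:**
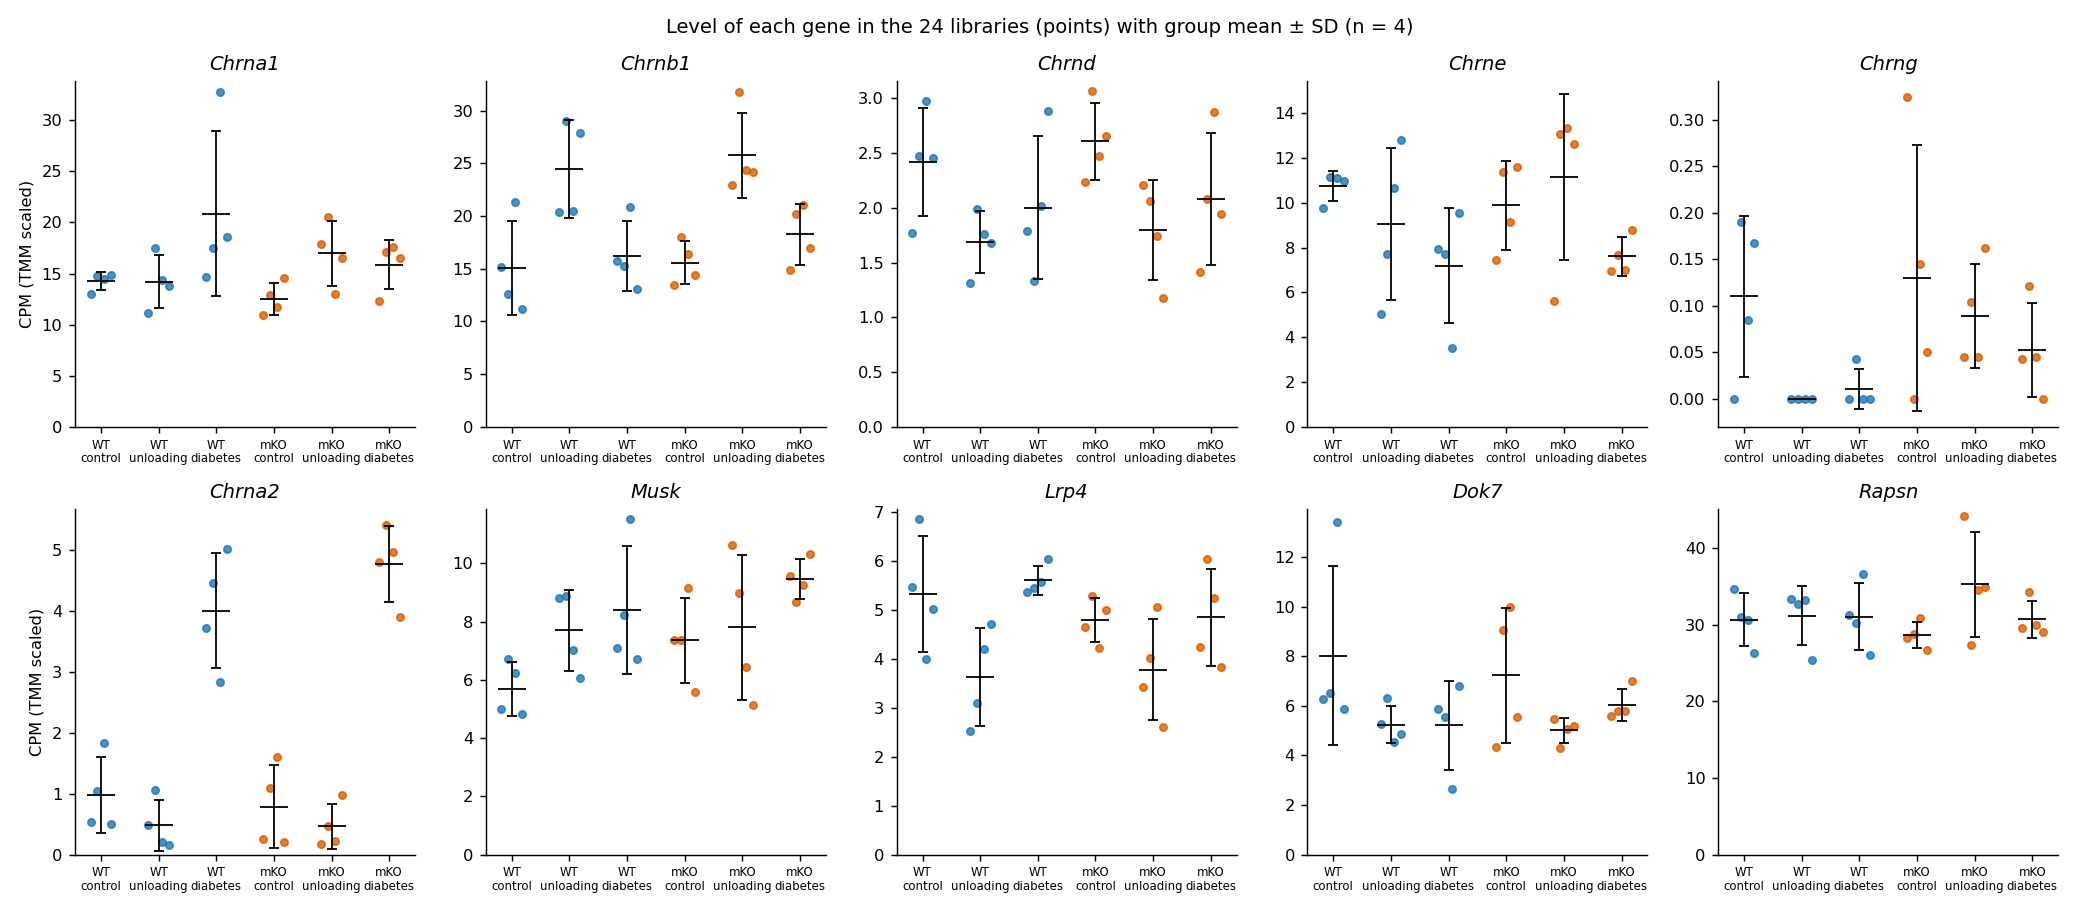
Level of each of the 10 genes in CPM (vertical axis, linear, scaled separately for each gene) in every library, by group; points are libraries, and bars are the group mean ± SD (n = 4). Chrna2 stands at 2.84 to 5.41 CPM in the diabetes groups and no higher than 1.83 CPM elsewhere, and Chrnb1 is highest in the unloading groups.

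Compared per kilobase of the longest annotated transcript in WT control muscle, Rapsn was the most abundant, at 19.1 ± 2.15 CPM per kilobase (SD, n = 4). Chrnb1 followed at 7.00 ± 2.09 CPM per kilobase and Chrne at 6.65 ± 0.411, neighbours that did not differ beyond their spread. Chrna1 stood at 3.25 ± 0.192 and Dok7 at 2.89 ± 1.29 CPM per kilobase, again within their spread. Musk was at 1.66 ± 0.272, Chrnd at 0.820 ± 0.167 and Lrp4 at 0.673 ± 0.150 CPM per kilobase, of which Chrnd and Lrp4 overlapped. Chrna2 was at 0.275 ± 0.174 CPM per kilobase and the fetal subunit gene Chrng lowest, at 0.0398 ± 0.0311. With the median coding transcript as length, an alternative added after the data were seen, Chrng was at 0.147 CPM per kilobase and still lowest.

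Chrnb1, the beta subunit gene (chr11:69784036-69795943, 10 exons), rose under unloading in both genotypes. In WT control libraries it was at 15.2, 12.6, 21.4 and 11.1 CPM and after unloading at 20.4, 29.0, 20.5 and 27.9 CPM. Control replicate 3 lay inside the unloading range, and the other controls lay below it. In Notch2-mKO controls it was at 13.5, 18.04, 16.4 and 14.4 CPM and after unloading at 22.9, 31.7, 24.3 and 24.2 CPM, with no overlap between these groups. The log2 fold change was 0.70 ± 0.18 (SE, adjusted p = 0.00453) in WT, a 1.62-fold rise, and 0.73 ± 0.18 (adjusted p = 0.0191) in Notch2-mKO, a 1.65-fold rise. The WT call held in 8 of 8 fits that left out 1 library. The Notch2-mKO call was lost without control replicate 4 (log2 fold change 0.68, adjusted p = 0.0584) or without unloading replicate 2 (0.59, adjusted p = 0.0681), and in limma on the authors' log2 values (0.86, adjusted p = 0.0880). With the trend on GC content and transcript length removed, both calls held, at 0.84 and 0.77.

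In diabetes Chrnb1 stayed near its controls, at 15.7, 15.2, 20.9 and 13.1 CPM in WT and 14.9, 20.2, 21.1 and 16.9 CPM in Notch2-mKO. The log2 fold changes were 0.11 ± 0.18 (adjusted p = 0.691) and 0.23 ± 0.18 (adjusted p = 0.487), neither called. Set directly against unloading, in a comparison added after the data were seen, diabetes gave -0.59 ± 0.18 in WT (adjusted p = 0.0706) and -0.50 ± 0.18 in Notch2-mKO (adjusted p = 0.156). Neither passed in edgeR; DESeq2 called the WT difference at -0.59 (adjusted p = 0.0376), and so did edgeR with a replicate block, at -0.61 (adjusted p = 0.0454). The annotated genes on either side of Chrnb1 were not called in the same comparisons: Zbtb4, whose end lies 12 bases away on the other strand, was at 51.7 ± 5.51 CPM in WT control and 44.1 ± 3.43 CPM in WT unloading, and Fgf11, 124 bases upstream, was at 0.716 ± 0.160 and 0.717 ± 0.203 CPM.

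Chrna2 (chr14:66135039-66152948, 8 exons) had the largest change among the 10 genes. It stood at 0.540, 1.04, 1.83 and 0.495 CPM in WT control and at 3.73, 4.45, 2.84 and 5.01 CPM in WT diabetes. In Notch2-mKO it was at 0.260, 1.09, 1.60 and 0.200 CPM in control and at 4.81, 5.41, 4.96 and 3.91 CPM in diabetes. All 8 diabetic libraries lay above all 8 controls. The log2 fold change was 2.02 ± 0.54 (SE, adjusted p = 0.00518) in WT, a 4.06-fold rise, and 2.60 ± 0.54 (adjusted p = 0.00944) in Notch2-mKO, a 6.05-fold rise. Both calls held in 8 of 8 fits without 1 library.

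Under unloading Chrna2 had lower means than in control, without a call and on few counts (6 to 52 per library in WT, 8 to 48 in Notch2-mKO). It was at 0.488, 1.07, 0.209 and 0.163 CPM in WT and at 0.181, 0.470, 0.226 and 0.971 CPM in Notch2-mKO. The log2 fold changes against control were -0.999 ± 0.59 (adjusted p = 0.194) and -0.75 ± 0.59 (adjusted p = 0.462). They ranged from -1.75 to -0.53 and from -1.45 to -0.17 when 1 library was left out, with a call only in WT without unloading replicate 2. Diabetes against unloading, added after the data were seen, gave 3.02 ± 0.56 in WT (adjusted p = 0.00329) and 3.34 ± 0.57 in Notch2-mKO (adjusted p = 0.00157). These comparisons share their diabetic libraries with those against control. Ephx2, a soluble epoxide hydrolase gene and the next gene upstream, starts 10538 bases from Chrna2 on the other strand and was looked at after its values were seen. It was at 33.1 ± 2.16 CPM in WT control, 21.5 ± 1.56 in WT unloading and 40.6 ± 9.09 in WT diabetes, and at 33.8 ± 4.87, 22.8 ± 5.54 and 44.0 ± 4.99 CPM in the same Notch2-mKO groups. Ephx2 fell under unloading by 0.62 and 0.56 on the log2 scale (adjusted p = 0.0044 and 0.0356), was not called in diabetes (0.29 and 0.38), and was higher in diabetes than in unloading by 0.92 and 0.95 (adjusted p = 0.00228 and 0.00167). Ptk2b, whose end lies 308 bases from that of Chrna2, was not called in any of these comparisons.

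Chrna1, the alpha subunit gene that carries the main ligand-binding surface (chr2:73563215-73580338, 9 exons), was at 13.0, 14.7, 14.5 and 14.8 CPM in WT control, 11.2, 17.5, 14.4 and 13.8 CPM in WT unloading and 14.6, 17.5, 32.7 and 18.6 CPM in WT diabetes. Replicate 3 of WT diabetes stood far above every other library. Replicate 1 lay inside the range of the controls, and replicates 2 and 4 lay above it. The rise in WT diabetes had a log2 fold change of 0.55 ± 0.19 (SE, adjusted p = 0.0289). Without replicate 3 it was 0.25 (adjusted p = 0.272), and the call was also lost without control replicate 1 (adjusted p = 0.0786) or control replicate 3 (adjusted p = 0.0589). It was lost too with the GC and length trend removed (0.35, adjusted p = 0.179), with only the groups compared in the fit (0.55, adjusted p = 0.0700) and in limma on the authors' log2 values (0.75, adjusted p = 0.125). The part of base composition in the Chrna1 value was not tested. The gene has a transcript GC content of 46.3%, the lowest of the 10. AT-rich against GC-rich genes stood at 0.196 to 0.520 (log2 scale) in WT diabetes libraries and at 0.346 to 0.505 in WT unloading. Every WT control was lower, at -0.906 to -0.182. WT unloading gave -0.01 ± 0.19 for Chrna1, a value whose sign changed with the settings, and was not called.

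In Notch2-mKO, Chrna1 was at 10.9, 12.9, 11.8 and 14.5 CPM in control, 17.9, 20.5, 13.0 and 16.5 CPM in unloading and 12.3, 17.1, 17.6 and 16.5 CPM in diabetes. In each treated group 3 of 4 libraries lay above all controls. The log2 fold changes of 0.44 ± 0.19 (adjusted p = 0.154) and 0.34 ± 0.19 (adjusted p = 0.303) did not pass. By Pearson correlation of log2 CPM over the 24 libraries, the genes most like Chrna1 were Son (r = 0.75), Tprgl (0.74), Gle1, L3mbtl3 and Irak1 (0.72 each); these points share library depth and base composition.

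Musk, the kinase at the centre of receptor clustering (chr4:58285960-58374303, 16 exons), was at 5.004, 6.72, 6.23 and 4.81 CPM in WT control and at 7.08, 8.24, 11.5 and 6.71 CPM in WT diabetes. Of the diabetic libraries, 3 lay above all controls. Musk rose with a log2 fold change of 0.56 ± 0.21 (SE, adjusted p = 0.0391), a 1.47-fold rise. The call held in 3 of 8 fits without 1 library and was lost without WT diabetes replicate 3 (0.36, adjusted p = 0.203) or 2, or without WT control replicate 1, 3 or 4. With the GC and length trend removed it held, at 0.63 (adjusted p = 0.0327), and limma on the authors' log2 values gave 0.81 (adjusted p = 0.0612). WT unloading, at 8.81, 8.88, 7.04 and 6.06 CPM, gave 0.43 ± 0.21 (adjusted p = 0.105); limma on the authors' log2 values called this rise, at 0.68.

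Notch2-mKO controls had Musk at 7.36, 7.36, 9.15 and 5.58 CPM, against 10.6, 8.997, 6.45 and 5.12 CPM after unloading and 9.57, 8.67, 9.27 and 10.3 CPM in diabetes. Neither treatment was called, with log2 fold changes of 0.08 ± 0.20 and 0.36 ± 0.20. The genes most like Musk over the 24 libraries were Paip1 and Usp24 (r = 0.79 each), Ddx23, Acsl3 and 1600020E01Rik (0.76 each).

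Lrp4, the agrin receptor (chr2:91457511-91513779, 35 exons), was at 5.47, 6.85, 3.99 and 5.03 CPM in WT control and 2.53, 3.09, 4.21 and 4.71 CPM in WT unloading. Of the unloaded libraries, 2 lay below all controls and the other two lay within them. The fall had a log2 fold change of -0.56 ± 0.21 (SE, adjusted p = 0.0363) and held in 4 of 8 fits without 1 library: it was lost without control replicate 1 or 2 (-0.56 and -0.42) or unloading replicate 1 or 2 (-0.42 and -0.49). It was also lost with the GC and length trend removed (-0.44), with only the groups compared in the fit (-0.55) and in limma on the authors' values (-0.12). In Notch2-mKO, unloading gave -0.34 ± 0.20 (adjusted p = 0.306), from 4.65, 5.28, 4.23 and 4.99 CPM to 3.43, 4.02, 5.07 and 2.62 CPM. Diabetes left Lrp4 at 5.60 ± 0.297 CPM in WT and 4.85 ± 0.994 CPM in Notch2-mKO, not called.

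**Figure D2:**
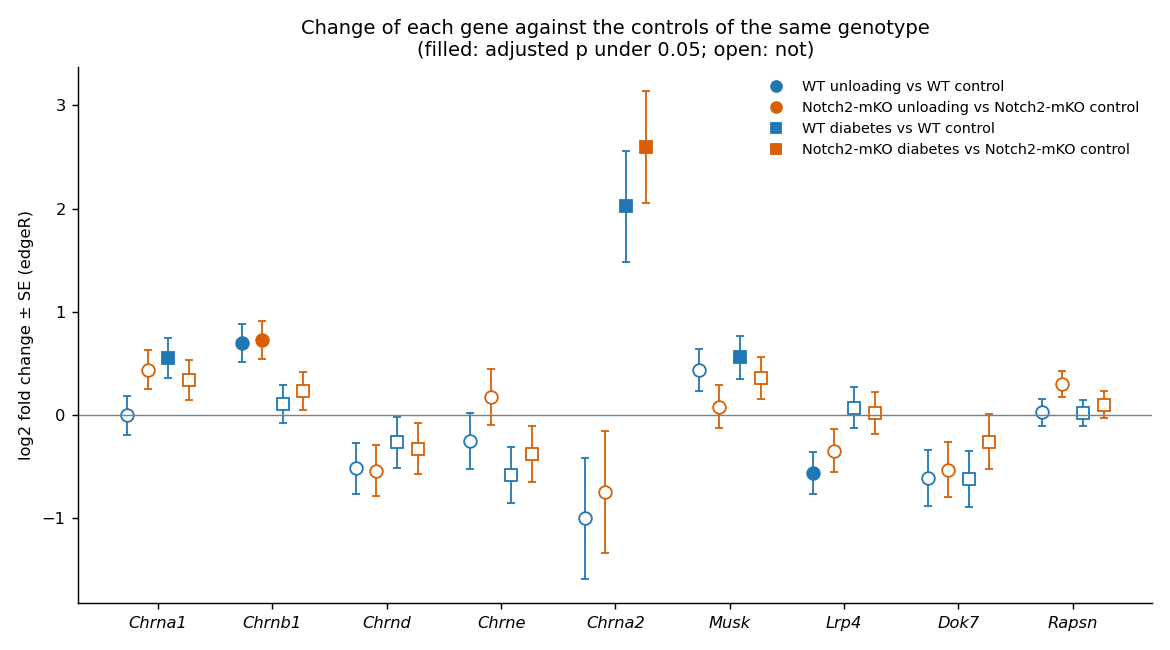
log2 fold change ± SE (edgeR; vertical axis) of the 9 genes in the fit, for each treated group against the controls of its genotype (4 libraries each); circles are unloading, squares diabetes, blue WT and orange Notch2-mKO, and filled symbols passed an adjusted p under 0.05. Chrna2 in diabetes (2.02 and 2.60) and Chrnb1 in unloading (0.70 and 0.73) were called in both genotypes, and Chrna1, Musk and Lrp4 passed this threshold in WT, while no difference between the genotypes' responses passed its test.

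Chrne, the adult epsilon subunit gene (chr11:70614883-70619216, 11 exons), had lower means in diabetes without a call. It was at 9.75, 11.1, 11.1 and 11.0 CPM in WT control and at 7.94, 7.73, 3.53 and 9.55 CPM in WT diabetes, and these groups did not overlap. The log2 fold change was -0.58 ± 0.27 (SE, adjusted p = 0.104). In Notch2-mKO it was at 7.43, 11.4, 9.13 and 11.6 CPM in control and 6.96, 7.66, 6.99 and 8.79 CPM in diabetes (-0.38 ± 0.27, adjusted p = 0.438). Unloading spread the values: 5.02, 7.70, 10.7 and 12.8 CPM in WT and 5.62, 13.1, 13.3 and 12.6 CPM in Notch2-mKO, not called in either. Mink1, whose end lies 399 bases from that of Chrne on the other strand, fell in WT, from 36.6 ± 3.09 CPM to 24.2 ± 3.49 in unloading and 21.8 ± 2.37 in diabetes (adjusted p = 0.000369 and 5.5e-05).

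The delta subunit gene Chrnd (chr1:87190607-87200070, 12 exons) was at 2.42 ± 0.493 CPM in WT control and 1.69 ± 0.281 CPM in WT unloading, a log2 fold change of -0.52 ± 0.25 (SE, adjusted p = 0.110). In Notch2-mKO it was at 2.60 ± 0.351 and 1.80 ± 0.460 CPM (-0.54 ± 0.25, adjusted p = 0.174), and there the unloaded libraries all lay below the controls. Diabetes gave -0.27 and -0.33, not called. Chrnd and Chrna2 had lower means in the unloading groups of both genotypes and neither passed its test there, while Chrnb1 was called higher in the same libraries.

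Chrng, the fetal gamma subunit gene (chr1:87204657-87212694, 12 exons), was at the limit of detection, with 0 to 15 estimated counts per library and 10 of 24 libraries at 0. In WT control it had 0, 8, 3 and 5.41 counts, in WT unloading 0 in all 4 libraries, and in WT diabetes 0, 2, 0 and 0. Notch2-mKO controls had 15, 0, 6 and 2 counts, unloaded libraries 2, 4, 2 and 8, and diabetic libraries 2, 6, 2 and 0. A count of 0 in a library still allows up to 0.0928 CPM in the library where 3 counts weigh most (counting error only). The Notch2-mKO unloading mean was below that of its controls by a difference of -0.041 CPM, which was 0.024 CPM without control replicate 1, the library with 15 counts. WT unloading against WT control gave p = 0.143 in an exact two-sided permutation test of CPM, where 4 against 4 cannot go below 0.0286. Over the 9 group pairs tested, the lowest p was 0.0286, the smallest possible, for Notch2-mKO against WT in unloading (0.257 after Benjamini-Hochberg adjustment). Per kilobase of the longest transcript, Chrng was at most 2.48% of the sum of Chrng and Chrne in any library. With the median coding transcript as length, 753 against 2780 bases for Chrng, this share would be higher.

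**Figure D3:**
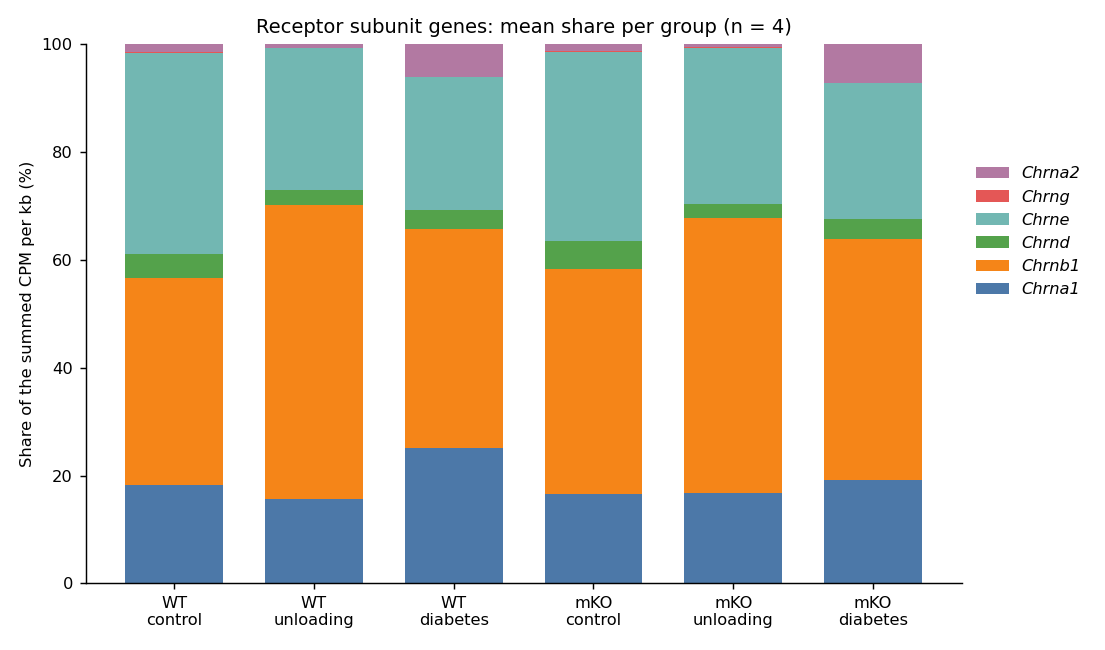
Mean share (vertical axis, percent, n = 4) of each receptor subunit gene in their summed CPM per kilobase, by group. Chrnb1 makes up 38.3% in WT control and 54.6% in WT unloading, Chrna2 1.46% in WT control and 6.16% in WT diabetes, and Chrng is too low to be seen clearly.

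Shares of the summed subunit level per kilobase put these values on 1 scale. The share of Chrnb1 was 38.3 ± 6.68% (SD, n = 4) in WT control, 54.6 ± 5.78% in WT unloading and 40.5 ± 5.84% in WT diabetes, and 41.8 ± 3.36%, 51.1 ± 3.70% and 44.8 ± 2.68% in the same Notch2-mKO groups. Its lowest unloaded library, at 47.4%, was above the highest control of either genotype, at 45.8%. The share of Chrna2 was 1.46 ± 0.725% in WT control and 6.16 ± 1.67% in WT diabetes, and 1.25 ± 1.06% and 7.17 ± 1.13% in Notch2-mKO. The share of Chrne was 37.2 ± 4.32% in WT control, 26.4 ± 7.18% in WT unloading and 24.5 ± 9.55% in WT diabetes; shares sum to a whole, so 1 share falls where another rises.

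The remaining genes of the clustering machinery had no call. Rapsn (chr2:91035620-91045729, 8 exons) lay between 25.4 and 44.2 CPM in all libraries, at 30.7 ± 3.46 CPM (SD, n = 4) in WT control, 31.2 ± 3.85 in WT unloading and 31.1 ± 4.38 in WT diabetes. Its largest log2 fold change was 0.30 ± 0.13 (adjusted p = 0.150), in Notch2-mKO unloading, where replicate 1 was at 44.2 CPM. Dok7 (chr5:35056766-35087839, 10 exons) was at 6.28, 6.52, 13.4 and 5.89 CPM in WT control, with replicate 3 far above the others, and at 5.24 ± 0.759 CPM in WT unloading and 5.22 ± 1.79 CPM in WT diabetes. The log2 fold changes were -0.61 ± 0.27 (adjusted p = 0.0810) and -0.62 ± 0.27 (adjusted p = 0.0797), and -0.53 and -0.26 in Notch2-mKO.

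The counts of the 9 genes in the fit are set beside the shares of all genes, and over both directions the WT shares of the 9 were not above those of all genes. In WT unloading 1 of 9 was called higher and 1 lower, beside 18.4% of all genes higher and 16.3% lower. In WT diabetes 3 of 9 were called higher and 0 lower (2 lower at an unadjusted p under 0.05, and 0 lower by DESeq2), beside 17.8% and 15.5% of all genes. Notch2-mKO unloading had 1 of 9 called higher and 0 lower (1 lower at an unadjusted p under 0.05, and 0 lower by DESeq2), beside 4.11% and 3.2%. Notch2-mKO diabetes had 1 of 9 higher and 0 lower (0 also at an unadjusted p under 0.05 and by DESeq2), beside 3.05% and 2.54%. The comparisons added after the data were seen, diabetes against unloading, each had 1 gene higher, Chrna2, and 0 lower (1 lower at an unadjusted p under 0.05; by DESeq2 1 in WT and 0 in Notch2-mKO), beside 2.31% and 1.24% in WT and 1.95% and 1.12% in Notch2-mKO. The median log2 fold change of the 9 genes was -0.25 in WT unloading, 0.08 in Notch2-mKO unloading, 0.07 in WT diabetes and 0.10 in Notch2-mKO diabetes, where the medians of all genes were -0.02, 0.02, -0.01 and -0.0064.

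Between genotypes none of the 9 genes was called in control, unloading or diabetes, where 0% of all genes were called by edgeR (695, 1345 and 692 genes at an unadjusted p under 0.05; DESeq2 called 3, 5 and 0 genes); DESeq2 called 0 of the 9 as well. At an unadjusted p under 0.05 there was 1 of the 9, Chrna1 in diabetes, with a log2 fold change of Notch2-mKO against WT of -0.40 ± 0.19 (SE, edgeR adjusted p = 0.872); WT diabetes replicate 3 enters that value. The difference between the genotypes' responses was not called for any of the 9 genes, and again 0% of all genes passed by edgeR (DESeq2: 128 genes for unloading and 1 for diabetes), with 0 of the 9 at an unadjusted p under 0.05 and 0 by DESeq2. For Chrnb1 the response to unloading differed by 0.03 ± 0.26 on the log2 scale between genotypes. For Chrna2 the response to diabetes differed by 0.58 ± 0.75, and for Musk by -0.20 ± 0.29. Each of these differences was smaller in size than its SE, and differences larger than the SE could also have gone uncalled.

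The genes did not move as 1 block across libraries. Among 36 pairs of the 9 genes, the Pearson correlations of log2 CPM over 24 libraries had a median of 0.05, none was above 0.5 and 17 were below 0. The lowest was that of Chrne with Musk (r = -0.70, Spearman's rho = -0.68). It was -0.69 for deviations from the group means and -0.65 without WT diabetes 3 and WT unloading 1, the libraries farthest from the median of Chrne. WT diabetes replicate 3 had the lowest Chrne of all libraries, 3.53 CPM, with the highest Musk, 11.5 CPM, and the highest Chrna1, 32.7 CPM. Notch2-mKO unloading replicate 1 had Chrne at 5.62 CPM and Musk at 10.6 CPM. The highest of the 36 pairs was Chrnd with Lrp4 (r = 0.45), which fell to 0.12 without the 2 libraries farthest from the median of Chrnd.

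**Figure D4:**
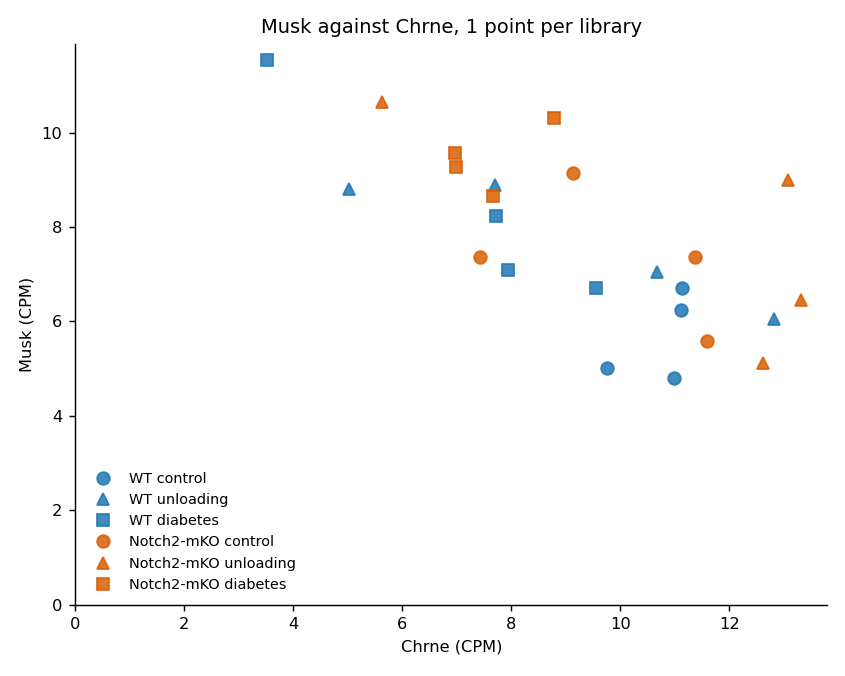
Musk against Chrne, both in CPM (linear axes from 0), 1 point per library (24 libraries, 6 groups by colour and shape). Libraries with low Chrne had high Musk: Chrne 3.53 with Musk 11.5 CPM in WT diabetes replicate 3, Chrne 12.6 with Musk 5.12 CPM in Notch2-mKO unloading replicate 4.

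Beyond the 10 genes, 21 genes of synapse assembly and the synaptic matrix were followed, of which 20 were in the fit and Crk was listed at 0 in all libraries. In WT unloading 4 of the 20 rose and 5 fell, beside 18.4% and 16.3% of all genes, with a median log2 fold change of -0.19 (all genes -0.02). Those that fell included Agrn, which encodes agrin (-1.04 ± 0.22, SE, adjusted p = 0.000828), Colq, the collagen tail of synaptic acetylcholinesterase (-0.85 ± 0.18, adjusted p = 0.000694), and Ache, the enzyme itself (-0.80 ± 0.20, adjusted p = 0.00278). Agrn was at 6.65 ± 0.699 CPM in WT control and 3.25 ± 0.506 CPM after unloading, and Ache at 46.4 ± 5.88 and 26.7 ± 8.47 CPM. Muscle-fibre agrin and nerve agrin come from 1 gene, and these values do not separate them. Erbb2ip, the older symbol of Erbin, a scaffold that binds Erbb2, rose most, from 12.4 ± 3.62 to 46.8 ± 12.1 CPM (1.92 ± 0.25, adjusted p = 7.09e-06). In Notch2-mKO unloading, beside 4.11% and 3.2% of all genes, 1 of 20 rose (Erbb2ip, 0.95) and 4 fell, among them Agrn (-0.95), the basement membrane gene Nid2 (-0.84) and Col13a1 (-1.43). Leaving out 1 library, 0 to 1 rose there and 0 to 3 fell.

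In WT diabetes 7 of the 20 rose and 6 fell, beside 17.8% and 15.5% of all genes, with a median of -0.03 (all genes -0.01). Erbb2ip rose by 1.96 ± 0.26 (SE, adjusted p = 9.45e-06), Utrn, the synaptic relative of dystrophin, by 0.79 ± 0.17 (adjusted p = 0.00101), and Macf1, a cytoskeletal linker, by 0.45 ± 0.12 (adjusted p = 0.00719). Colq fell by 0.61 on the log2 scale (adjusted p = 0.0104). Agrn (-0.64, adjusted p = 0.0253) and Ache (-0.58, adjusted p = 0.026) fell as well. For diabetes against unloading, no gene of this list was called in either genotype. In Notch2-mKO diabetes, beside 3.05% and 2.54% of all genes, 1 rose (Erbb2ip, 0.90) and 1 fell (Nid2, -0.81), and 0 to 2 did in either direction when 1 library was left out. The medians in Notch2-mKO were -0.24 in unloading and -0.0039 in diabetes. Once that GC and length trend was taken out, WT counts were 3 up and 4 down in unloading and 3 up and 1 down in diabetes, and in Notch2-mKO 1 up and 3 down and 0 up and 1 down. Erbb2ip was then at 1.21 and 1.25 in WT and 0.74 in Notch2-mKO unloading, all called, and at 0.62 in Notch2-mKO diabetes (adjusted p = 0.0743), no longer called. Ache in WT unloading (-0.51, adjusted p = 0.0532) also lost its call. So did Macf1 (0.15, adjusted p = 0.261), Colq (-0.37, adjusted p = 0.119) and Ache (-0.33, adjusted p = 0.228) in WT diabetes. Leaving out 1 library, those that rose in WT unloading numbered 2 to 5 and in WT diabetes 3 to 7, and those that fell 5 to 6 and 1 to 6. No gene of this list was called between genotypes.

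**Figure D5:**
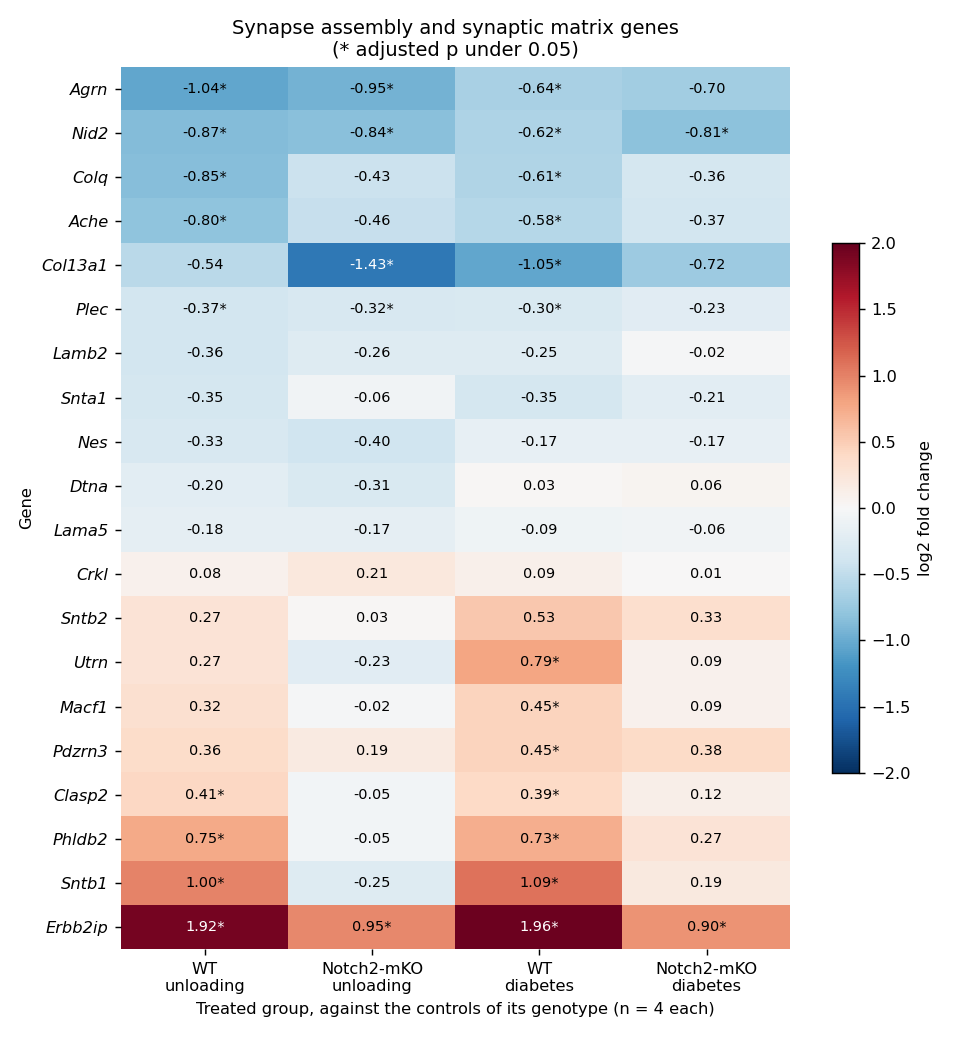
log2 fold change (colour and printed values, edgeR) of the 20 synapse assembly and matrix genes in the fit, 1 row per gene and 1 column per treated group against the controls of its genotype (4 libraries each); asterisks mark an adjusted p under 0.05. Agrn stood at -1.04 and -0.95 in the unloading columns, at -0.64 in WT diabetes and, not called, at -0.70 in Notch2-mKO diabetes. Erbb2ip rose in all 4 columns, from 0.90 to 1.96.

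Of 10 genes of synaptic transcription and neuregulin signalling, 8 were in the fit. In WT unloading 1 rose and 1 fell, beside 18.4% and 16.3% of all genes: Gabpa rose (1.18 ± 0.18, SE, adjusted p = 3.55e-05) and Etv4, an ETS factor, fell (-0.62 ± 0.24, adjusted p = 0.0455). In WT diabetes 3 rose and 0 fell, beside 17.8% and 15.5%: Gabpa (1.10 ± 0.18, adjusted p = 9.71e-05), Jun (0.83 ± 0.25, adjusted p = 0.0112) and the neuregulin receptor gene Erbb3 (0.85 ± 0.27, adjusted p = 0.0155). Gabpa went from 6.89 ± 1.54 CPM in WT control to 15.6 ± 1.88 in unloading and 14.8 ± 3.16 in diabetes. Chrne, whose promoter holds the N-box core shown above, had log2 fold changes of -0.25 and -0.58 there, neither called. A link between Gabpa and Chrne was not tested. With the GC and length trend removed Gabpa was at 0.60 and 0.55, still called, and Etv4 in WT unloading at -0.30 (adjusted p = 0.349), no longer called. In Notch2-mKO unloading none of the 8 was called by edgeR, beside 4.11% of all genes higher and 3.2% lower. Etv5 was nearest (-0.37, adjusted p = 0.0608), and Etv5, Erbb3 and Etv4 were under 0.05 unadjusted. In Notch2-mKO diabetes 1 rose, Erbb3 (0.96 ± 0.27, adjusted p = 0.0375), and 0 fell, beside 3.05% and 2.54%. Leaving out 1 library, 0 to 1 rose in Notch2-mKO diabetes.

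Genes known to change after denervation were taken as a further list of 16, with 14 in the fit. In WT unloading 4 rose and 1 fell, beside 18.4% and 16.3% of all genes; those that rose included Sln, encoding the calcium pump regulator sarcolipin (2.42 ± 0.50, SE, adjusted p = 0.000636), Gadd45a (1.61 ± 0.36, adjusted p = 0.00118) and Dach2 (1.35 ± 0.43, adjusted p = 0.0162), the last of which is known to fall after denervation. Myh3, the embryonic myosin gene, was the 1 that fell (-1.46 ± 0.45, adjusted p = 0.0128). In WT diabetes 4 rose and 1 fell, beside 17.8% and 15.5%: those that rose included Sln (2.67 ± 0.50, adjusted p = 0.000287), Myh3 (1.82 ± 0.41, adjusted p = 0.00155) and Gadd45a (1.54 ± 0.36, adjusted p = 0.00185), and Myod1 fell (-1.27 ± 0.24, adjusted p = 0.000271). In Notch2-mKO unloading 1 of 14 rose, Runx1 (1.62 ± 0.45), and 1 fell, Myh3 (-1.69 ± 0.45), beside 4.11% and 3.2% of all genes. In Notch2-mKO diabetes 1 rose, Myh3 (1.51 ± 0.41), and 0 fell, beside 3.05% and 2.54%. With the GC and length trend removed, 2 rose in WT unloading, where Dach2 was at 0.63 (adjusted p = 0.259), and 3 in WT diabetes. Myh3 was at 2.54 ± 0.835 CPM in WT control, 0.903 ± 0.504 in WT unloading and 8.93 ± 7.15 in WT diabetes, where 1 library was at 19.6 CPM and the lowest at 5.09. Diabetes against unloading gave 3.28 ± 0.45 in WT (adjusted p = 0.000192) and 3.20 ± 0.45 in Notch2-mKO (adjusted p = 0.00021) for Myh3. Leaving out 1 library, 2 to 4 of the 14 rose in WT unloading and 4 to 5 in WT diabetes. In Notch2-mKO 0 to 1 rose and 0 to 1 fell in unloading, and 0 to 1 rose in diabetes.

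As a further list, 10 neuronal receptor subunit genes were followed beside Chrna2. Chrna3, Chrna6 and Chrnb3 were at 0 counts in all 24 libraries, Chrna4, Chrna5, Chrna7 and Chrnb4 had at most 10 counts in any library, and Chrna9, Chrna10 and Chrnb2 were in the fit. None of those 3 was called in any treatment or genotype comparison by edgeR; the nearest was Chrna10, at 6.77 ± 0.631 CPM (SD, n = 4) in WT control and 5.203 ± 0.479 CPM in WT unloading (adjusted p = 0.0533), which was under 0.05 unadjusted.

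Markers of other cells in the muscle were measured beside these results. None of 15 Schwann cell and nerve markers was called in Notch2-mKO under either treatment by edgeR. Of all genes, 4.11% were called higher and 3.2% lower there in unloading, and 3.05% and 2.54% in diabetes. Cadm4 rose in WT unloading (0.53, adjusted p = 0.0117), and the number of this list called in WT is not given. Its summed level was 59.2 to 102 CPM in WT control, 75.3 to 97.4 CPM in WT unloading and 61.1 to 81.0 CPM in WT diabetes, so the control range held both. Of 5 satellite cell markers 1 rose in WT unloading and 2 in WT diabetes, beside 18.4% and 17.8% of all genes, with Myf5 in both (2.99 and 2.63). Of 8 fibre markers 3 fell in WT unloading and 4 in WT diabetes, beside 16.3% and 15.5% of all genes, and 2 in Notch2-mKO unloading and 1 in Notch2-mKO diabetes, beside 3.2% and 2.54%. Their sum was 234424 to 286265 CPM in WT control, 159196 to 207705 CPM in WT unloading and 160696 to 218124 CPM in WT diabetes. Neither treated group overlapped these controls. In Notch2-mKO the sum was 221022 to 251406 CPM in control and 191426 to 215375 CPM in diabetes, without overlap. The Notch2-mKO unloading sum, 122852 to 225092 CPM, overlapped that of its controls. Of 5 fibroblast markers 2 fell and 1 rose in WT unloading, beside 16.3% and 18.4% of all genes. WT diabetes had 2 that fell and 2 that rose, beside 15.5% and 17.8%. In Notch2-mKO 1 fell in unloading and 2 fell in diabetes, beside 3.2% and 2.54%. The fibroblast sum was 499.7 to 674.3 CPM in WT control, 268.6 to 481.2 in WT unloading and 271.7 to 400.6 in WT diabetes. Again neither treated group overlapped the controls. In Notch2-mKO this sum was 397.9 to 727.7 CPM in control and 302.4 to 383.6 CPM in diabetes, without overlap. The Notch2-mKO unloading sum, 285.8 to 438.7 CPM, overlapped that of its controls. A sum follows its most abundant genes: the median log2 fold change of this list was 0.09 in WT unloading and 0.35 in WT diabetes. Of 6 endothelial markers 2 fell in each of WT unloading, Notch2-mKO unloading and WT diabetes, beside 16.3%, 3.2% and 15.5% of all genes. Of 6 macrophage markers 4 fell in WT unloading and 1 in WT diabetes, beside 16.3% and 15.5%. In Notch2-mKO none was called, beside 4.11% and 3.2% of all genes in unloading and 3.05% and 2.54% in diabetes. The median log2 fold change of the macrophage list was -0.79 in WT unloading and 0.04 in Notch2-mKO unloading. Of 7 adipocyte markers, a list added after the data were seen, 1 rose in WT unloading, beside 18.4% of all genes. For WT diabetes 1 of them rose and 1 fell, beside 17.8% and 15.5%. The part of these cells in the changes of Chrnb1, Chrna2 and the other junction genes was not tested.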

How the data were processed

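RNA sequencing of 24 gastrocnemius libraries was used, 4 in each of 6 groups named by the sample titles. The authors deposited 4 tables with an estimated count per RefSeq gene model, named raw per the file headers. Beside them stand log2 values that the authors deposited as normalized, per the file headers, and that centre on the controls of each table. Per the submitters' processing notes the genome build was mm10. Which aligner, counting tool and strand setting were used is not given in the sources used here. The control libraries appear in 2 tables with identical values (8 of 8) and were used once.

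Estimated counts were rounded and tested with edgeR 4.0.16 (R 4.3.3): TMM scaling, default expression filter by group (13048 genes), 1 fit of all libraries, Benjamini-Hochberg adjusted p under 0.05. The procedure was tested on simulated data. Depth was 33112459 to 56369917 counts per library; the common biological coefficient of variation was 20.0%. Chrng, below the filter, was tested by exact permutation of CPM. Lengths and GC content came from the longest GENCODE M21 transcript, promoters from RefSeq GRCm38.p6.

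Members and lists were chosen with earlier results of these data known. All 10 members are named. Of each further list, up to 4 genes with the smallest p per comparison are named, and Agrn and Ache also in diabetes. A single marker of the Schwann cell and nerve list is not reported here. Erbin and Adgre1 were matched by gene ID to Erbb2ip and Emr1. Alternatives were upper quartile scaling, no expression filter, only the groups compared, a replicate block, removal of the GC and length trend, DESeq2 1.42.0, leaving out each library and, added after the data were seen, limma 3.58.1 on the deposited log2 values, diabetes against unloading, an adipocyte list, other lengths and Chrng over library totals.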

Additional observations from a re-analysis of the deposited data

Results flagged for a closer look

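Among 60 sets of 4 libraries (10 genes in 6 groups), 8 held a library far from the other 3 by Dixon's test at its 95% critical value for 4 samples, where chance gives about 1 in 20. Of the receptor subunit genes, Chrnb1 reached 31.7 CPM in 1 Notch2-mKO unloading library (others 22.9 to 24.3). Chrne was at 9.75 CPM in 1 WT control (others 11.0 to 11.1) and at 5.62 CPM in 1 Notch2-mKO unloading library (others 12.6 to 13.3). Chrng was at 0.0428 CPM in 1 WT diabetes library, from 2 counts, with the others at 0. Where the other 3 are at 0, this test flags any count, so the rate of about 1 in 20 does not hold for Chrng. Dok7 was at 13.4 CPM in 1 WT control (others 5.89 to 6.52) and at 7.00 CPM in 1 Notch2-mKO diabetes library (others 5.59 to 5.79). Rapsn was at 25.4 CPM in 1 WT unloading library (others 32.7 to 33.3) and at 34.3 CPM in 1 Notch2-mKO diabetes library (others 29.1 to 30.0).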

How the results depend on the processing

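Of 40 fold changes followed, the alternatives kept direction and call in 578 cases. They lost the call in 24, gained it in 10 and turned the sign in 22, and the cause was not tested. Most of the 40 were not called in the main fit, so most of the 578 cases were values that stayed uncalled. The 24 lost calls could come only from the fold changes called in the main fit. The number of the 9 genes called fell from 2 to 1 in WT unloading with only the groups compared, with the GC and length trend removed, and with that trend removed in a fit with the replicate block. With limma on the authors' log2 values it was 0 in Notch2-mKO unloading and 1 in WT diabetes. For WT diabetes against WT unloading it was 2 with the replicate block, alone or with the GC and length trend removed, and 2 by DESeq2, against 1. Signs turned for values near 0: Chrna1 in WT unloading was 0.0040 with only the groups compared and 0.23 with limma, Rapsn in WT unloading -0.012 and Lrp4 in Notch2-mKO diabetes -0.0063 with upper quartile scaling.

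Leaving out 1 library, the genes called numbered 1 to 3 in WT unloading, 0 to 1 in Notch2-mKO unloading, 1 to 4 in WT diabetes and 1 to 2 in WT diabetes against WT unloading. Log2 fold changes that turned sign ranged in WT unloading from -0.12 to 0.094 for Chrna1 and -0.049 to 0.11 for Rapsn, and in Notch2-mKO unloading from -0.11 to 0.23 for Musk. In WT diabetes they ranged from -0.039 to 0.32 for Chrnb1, -0.049 to 0.22 for Lrp4 and -0.071 to 0.095 for Rapsn, and in Notch2-mKO diabetes from -0.11 to 0.11 for Lrp4. The Chrng difference in Notch2-mKO unloading ranged from -0.084 to 0.024 CPM. The replicate numbers did not pair the libraries: same-numbered libraries had correlated deviations of -0.23 to 0.33 over 60 pairs, and 6 of 24 correlated best with their own number. Depth limits Chrng, whose CPM rested on at most 15 counts.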
